A study of Capra hircus with 6 samples.

Results

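Brown and black skin of Pashmina goats were compared locus by locus over the whole transcriptome, and the genes at both ends of the comparison were then sorted by the part of the skin in which they are known to act. The deposited table holds 26938 loci with 1 FPKM value (sequenced fragments of a locus, divided by its exon length and by the size of the library) per coat colour. For brown against black, 14131 loci had the status OK, which means that the comparison tool judged them measurable, and 13911 of these reached an FPKM of at least 1 in brown or in black. These 13911 loci are described here. A further 12804 loci were not tested by the tool, 3 failed, and 220 had the status OK but stayed under the minimum in both colours.

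The skin came from the flank of 6 female Chanthangi Pashmina goats aged 26 months, 2 brown, 2 white and 2 black, kept at one farm and sampled at the same time. The sample labels name the colours brown, white and black, whereas the design text of the series names a grey group in place of brown. Brown was set against black, and the white value is given beside them as a description only. Each colour has 1 value that combines its 2 goats, so there is no replicate, no spread and no test here, and a difference between the colours cannot be told apart from a difference between the individual goats. A whole-skin sample mixes epidermis, hair follicles, glands, dermis, vessels and immune cells, so that a higher share of one cell type and more RNA per cell of that type cannot be told apart either. The skin label was borne out by keratinocyte genes, which were among the most abundant in every colour: the basal keratin KRT14 had an FPKM of 12437 in brown, 8995 in white and 7238 in black, and the suprabasal keratin KRT1 had 5825 in brown, 4835 in white and 4335 in black.

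Coat colour in mammals is set largely by a switch in the melanocytes of the hair follicle. The receptor MC1R, when active, raises cyclic AMP and with it MITF, tyrosinase and the other enzymes that make dark eumelanin. Agouti signalling protein, the product of ASIP, is secreted by dermal cells of the follicle, blocks MC1R and shifts pigment towards yellow or red pheomelanin. Melanocytes also depend on KIT ligand and its receptor KIT for migration and survival, and on Wnt signals for their formation.

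Brown and black skin were close for most genes. The log2 ratio of brown over black had a median of 0.20 over the 13067 loci at 1 FPKM or more in brown and in black alike, which corresponds to 1.15-fold, and this median was subtracted from every ratio to give the relative log2 ratio used below. Above or below the median means above or below 0 on this scale. Of the 13832 loci above 0 in both colours, 11819 (85.4%) lay within 1.5-fold of that median, the middle 50% of them between -0.23 and 0.28, and their SD over loci was 0.50. At least 2-fold higher in brown relative to the median were 276 loci (2.00%), and at least 2-fold lower were 245 loci (1.77%). Without subtraction of the median these counts were 486 and 163. Past a relative log2 ratio of 2 in size, 42 loci were higher and 48 lower. Just inside the 2-fold line were NPR3, with 7.07 FPKM in brown and 3.08 in black (0.80 within bins of span), and GDPD2, with 4.53 in brown and 1.98 in black. Just outside it was MUCL1, at a relative log2 ratio of 0.996, with 78.8 in brown and 34.5 in black. At the FPKM minimum, ZNF268 lay just inside with 1.00 in brown and 0.776 in black, and KCNS3 just outside with 0.999 in brown and 0.548 in black.

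**Figure D1:**
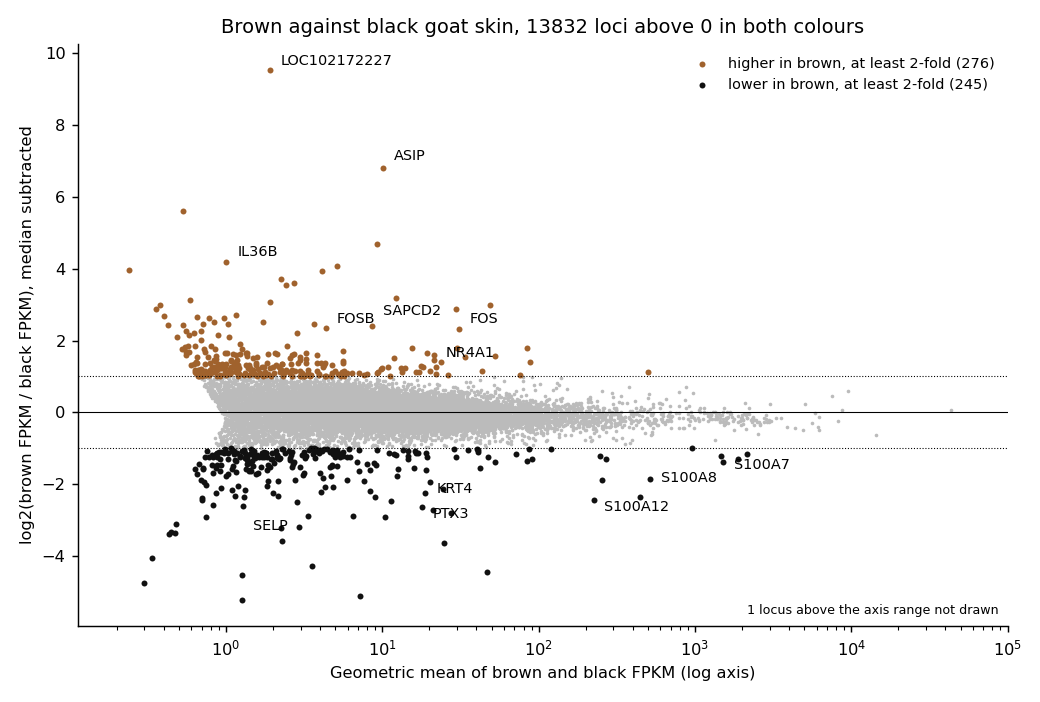
Relative log2 ratio of brown over black (vertical axis, median of the loci subtracted) against the geometric mean FPKM of both colours (horizontal log axis) for 13832 loci, 1 point each; brown points are at least 2-fold higher in brown (276) and black points at least 2-fold lower (245). One locus above the axis range is not drawn. ASIP stands apart at 6.82, and S100A8 and S100A12 lie at -1.85 and -2.45.

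The higher and the lower tail differed in the kind of locus they held. Among loci that span more than 100 kb on the genome, 70 of 1666 (4.2%) were higher in brown and 7 (0.42%) lower. Among loci of 3 kb or less, 77 of 1702 (4.52%) were higher and 94 (5.52%) lower. Loci over 100 kb made up 25.4% of the loci higher in brown and 2.86% of the lower ones, and loci of 3 kb or less 27.9% and 38.4%. With the median taken within 20 bins of locus span in place of one median, 234 loci were higher and 204 lower, of which 195 and 185 were also in the tails above. Loci of low level took larger shares: of the 1463 loci whose higher colour lay at 1 to 2 FPKM, 102 (6.97%) were higher in brown and 65 (4.44%) lower, against 6 (0.68%) and 17 (1.93%) of the 883 loci at 100 FPKM or more. By class, 172 of 12213 protein-coding loci (1.41%) were higher and 160 (1.31%) lower, while lncRNA loci gave 26 (7.72%) and 25 (7.42%) of 337 and pseudogenes 24 (9.16%) and 13 (4.96%) of 262. The part that locus span and level play in any single gene was not tested. Values centred by span are given where they move a named gene across the 2-fold line.

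**Figure D2:**
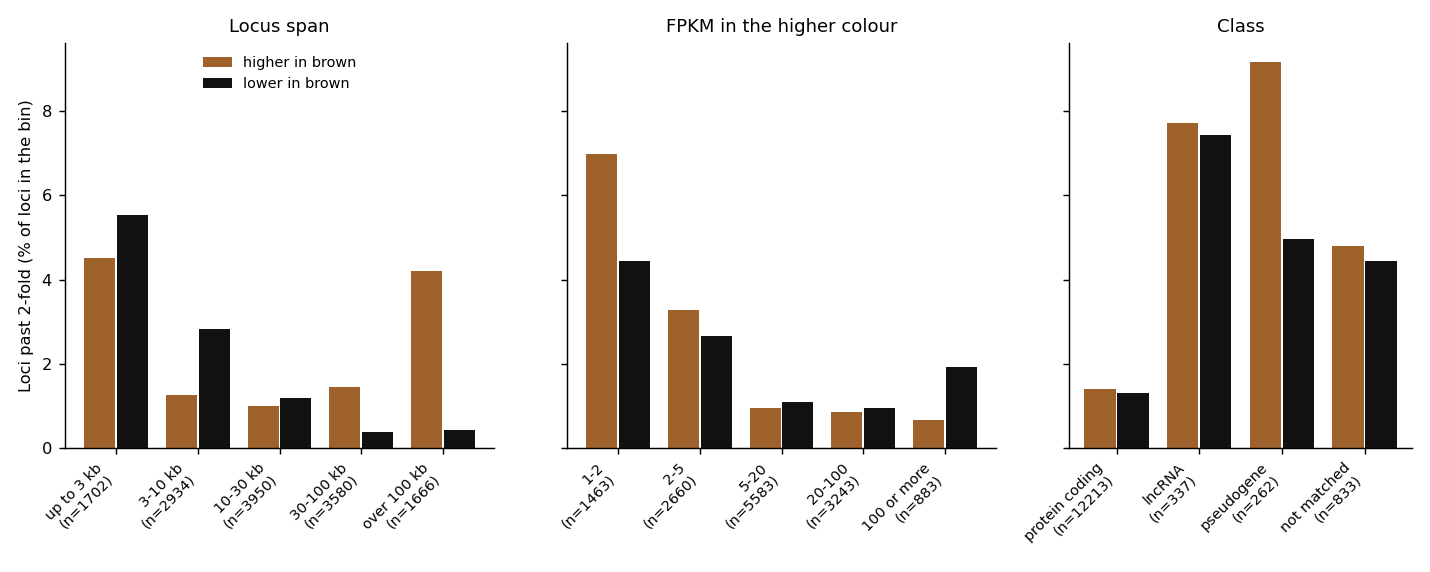
Share of loci at least 2-fold higher (brown bars) or lower (black bars) in brown skin, in percent of the loci in each bin, by the span of the locus, by the FPKM in the higher colour and by gene class. The bin of loci over 100 kb holds 4.2% higher and 0.42% lower loci, and the lncRNA bin 7.72% and 7.42%.

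The signals that reach melanocytes held the largest difference of any gene with a symbol. ASIP, the antagonist of MC1R, had an FPKM of 114 in brown, 177 in white and 0.882 in black, a relative log2 ratio of 6.82 and a plain ratio of 130 for brown over black (chromosome 13, 61693104 to 61698483 in the coordinates of the table). Black skin was the colour that stood apart, with a value under 1, while brown and white were both above 100. Of the 12 listed signals to melanocytes that were measured, 4 were at least 2-fold higher in brown, none was lower, and 11 lay above the subtracted median, with a list median of 0.63 (0.01 over the 13832 loci) that was 0.25 within bins of span. The remaining 3 were WNT3A, WNT3 and KITLG. KITLG, the ligand of KIT, had 9.99 FPKM in brown, 10.3 in white and 4.05 in black, with a relative log2 ratio of 1.11 that became 0.84 within bins of span. The MC1R accessory gene MGRN1 (0.09), the growth factor BMP4 (0.10) and the peptide endothelin EDN1 (-0.01) lay near the median.

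Wnt ligands and their Frizzled receptors, a list that shares WNT3 and WNT3A with the one above, were mostly above the median. Of 22 measured members, 5 were at least 2-fold higher in brown and none was lower, against 2.00% and 1.77% of the 13832 loci. Above the subtracted median were 17, and the list median was 0.26. WNT3A, a ligand of the canonical pathway, had 4.92 FPKM in brown, 3.42 in white and 1.42 in black. WNT3 had 16.4 in brown, 24.6 in white and 6.12 in black. Both ligands were thus lowest in black skin, with relative log2 ratios of 1.60 and 1.22. FZD8, WNT5B and WNT7B also passed 2-fold, but at 1.25, 1.12 and 3.49 FPKM in brown and 0.433, 0.426 and 1.51 FPKM in black they were low in both colours. FZD8 and WNT5B reached the minimum only in brown, so their place in the list depends on the colour where they were high. With a pseudocount of 1 they were at 0.48 and 0.40. WNT7B was named here after its value was seen. The abundant receptors FZD7, with 23.2 FPKM in brown and 17.9 in black, and FZD10, with 18.0 in brown and 15.3 in black, were within 1.5-fold. WNT16 was the lowest of the family at -0.87, with 5.07 FPKM in brown and 8.05 in black, and was also named after its value was seen.

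Among the genes of melanocytes themselves, 3 were past 2-fold, and no enzyme of melanin synthesis was among them. Of 18 measured melanocyte and melanosome genes, 3 were at least 2-fold higher in brown, none was lower, 13 were above the subtracted median, and the list median was 0.36. Within bins of span 1 of them, MLANA (1.22), was past 2-fold, while KIT was at 0.93 and MREG at 0.83, and the list median was 0.25. MLANA, a melanosome protein, had 14.8 FPKM in brown, 5.86 in white and 5.95 in black. KIT had 8.02 in brown, 11.0 in white and 3.33 in black, and MREG, which acts in melanosome transfer, had 11.7 in brown, 13.7 in white and 5.01 in black. For these the black value was the lowest or level with white.

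The enzymes of melanin synthesis gave no common direction. TYRP1 had 9.72 FPKM in brown, 0.120 in white and 9.79 in black, so that brown and black were level and white was apart. TYR, the enzyme of the first step, had 2.48 in brown, 0.704 in white and 1.98 in black (0.13, and -0.14 within bins of span). DCT, which acts on dopachrome in the eumelanin branch, had 5.60 in brown, 1.05 in white and 2.50 in black, a relative log2 ratio of 0.97 that lay just under 2-fold. PMEL, the fibril protein on which eumelanin is laid down, had 22.5 in brown, 3.77 in white and 30.9 in black, the lowest of the list at -0.65. The regulator MITF had 7.11 in brown, 8.83 in white and 3.90 in black (0.67, and 0.26 within bins of span). MC1R itself was low throughout, with 1.39 in brown, 2.09 in white and 1.80 in black. The G protein subunit GNAQ had 4.58 in brown, 5.13 in white and 1.97 in black, with a relative log2 ratio of 1.02 that was 0.61 within bins of span. SLC7A11, the cystine carrier used for pheomelanin, was under the minimum and not tested by the tool, at 0.342 in brown, 1.20 in white and 0.104 in black.

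**Figure D3:**
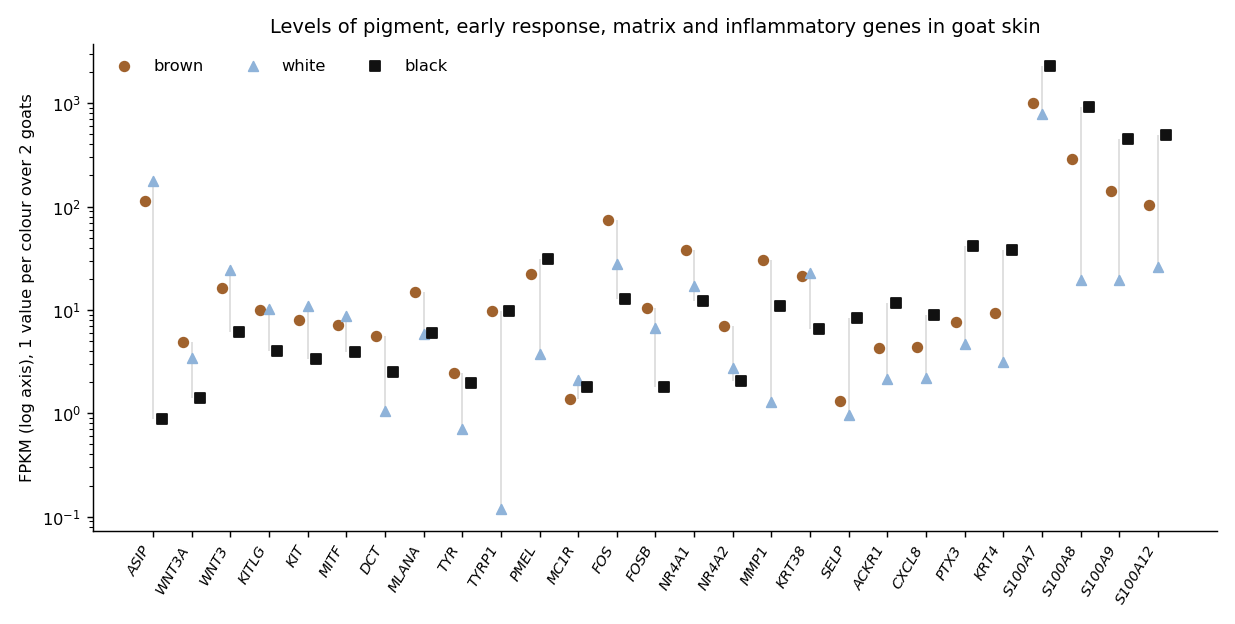
FPKM on a log axis of 27 genes in brown (circles), white (triangles) and black skin (squares), 1 value per colour over 2 goats, with no error because none can be given. Black is the lowest colour for ASIP, WNT3A, WNT3, KITLG and KIT, brown is the highest for FOS, FOSB, NR4A1, NR4A2 and MMP1, and black is the highest for the inflammatory genes on the right.

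Some immediate early genes were among the named genes with the highest ratios. FOS had 74.1 FPKM in brown, 27.6 in white and 12.8 in black, and FOSB had 10.5 in brown, 6.65 in white and 1.81 in black. Both encode subunits of the AP-1 transcription factor that cells make within minutes of a stimulus. The orphan nuclear receptors NR4A1 and NR4A2 followed, with 38.1 and 7.05 in brown, 16.9 and 2.73 in white, and 12.2 and 2.04 in black. DUSP1, a phosphatase that switches off MAP kinases, had 32.0 in brown, 27.1 in white and 12.6 in black. The relative log2 ratios of these 5 genes were 2.33, 2.34, 1.45, 1.59 and 1.14. The other early response genes lay closer to the median. Of 11 AP-1 and ATF factors 2 were past 2-fold, the partner genes JUN (0.27) and JUNB (0.15) were not, and FOSL2 lay at -0.30. Of 36 genes in the EGR, NR4A and early response list 3 were at least 2-fold higher, none was lower, and the list median was 0.05. EGR1 had 46.5 FPKM in brown, 56.6 in white and 27.9 in black, at 0.54, and GADD45B lay at the other end with 12.4 in brown, 17.7 in white and 20.4 in black, at -0.92 (both were named after their values were seen). Among glucocorticoid-induced genes, KLF15 (1.40) and ZBTB16 (1.26) passed 2-fold at low levels of 1.12 and 2.89 FPKM in brown and 0.370 and 1.05 in black. Within bins of span KLF15 was at 1.49 and ZBTB16 at 0.85, and 2 of 10 genes of the list, not 3, were past 2-fold. FKBP5 (-0.02) and TSC22D3 (-0.43), 2 classical targets of the hormone, did not. PTGS2, the inducible cyclooxygenase, had 17.0 FPKM in brown, 7.24 in white and 7.33 in black (1.02), and was named after its value was seen.

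The genes lower in brown included inflammatory and neutrophil-type genes. S100A8 had 290.4 FPKM in brown, 19.6 in white and 912 in black, S100A9 had 141 in brown, 19.7 in white and 455 in black, and S100A12 had 103 in brown, 26.0 in white and 491 in black. These calcium-binding proteins are stored in neutrophils and are also made by stressed keratinocytes. For all 3 the order was the same, with black highest, brown between and white lowest. S100A7, an antimicrobial protein of keratinocytes named after its value was seen, had 1010.0 in brown, 790.2 in white and 2287 in black, and its near copy S100A7A had 211 in brown, 244 in white and 943 in black. Reads from such near copies can be shared, so the split between them is uncertain. Of 17 measured S100 genes 6 were at least 2-fold lower and none higher, with a list median of -0.31 that was -0.12 within bins of span. The abundant S100A2, S100A4 and S100A11, at 0.26, -0.16 and -0.06, stayed near the median.

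Of 14 measured neutrophil markers 7 were at least 2-fold lower in brown, none was higher, and the list median was -1.22. These include S100A8, S100A9 and S100A12. Without the S100 genes, a split made after seeing the data, 4 of 11 were at least 2-fold lower, 8 were below the median, and the median was -0.69. The receptors CXCR1 and CSF3R and the oxidase subunit NCF1 had 0.921, 0.826 and 0.871 FPKM in brown, 0.857, 0.548 and 4.73 in white, and 2.64, 2.17 and 2.32 in black. These 3, named after their values were seen, stayed under 1 FPKM in brown, and NCF1 was highest in white. CXCR2, with 8.61 in brown and 8.64 in black, and LCN2, with 20.7 in brown and 17.8 in black, the most abundant of the others, lay at -0.20 and 0.02. The defining granule genes were near 0 in both colours: MPO had 0.0121 FPKM in brown and 0.0209 in black, and MMP8 was listed at 0 in brown and at 0.0329 in black, both named after their values were seen. Summed over the 18 markers in the table the list had 579 FPKM in brown, 106 in white and 1908 in black, most of it from the 3 S100 genes. Whether neutrophils or keratinocytes were their source was not tested.

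Among vessel genes, SELP and ACKR1 were at least 2-fold lower in brown, and the general endothelial markers did not reach 2-fold. SELP, the P-selectin that activated endothelium shows to leukocytes, had 1.31 FPKM in brown, 0.969 in white and 8.43 in black, a relative log2 ratio of -2.88. ACKR1, the chemokine-binding receptor of venules, had 4.28 in brown, 2.15 in white and 11.6 in black. SELE and ICAM1, named after their values were seen, lay at -0.52 and -0.98. PECAM1, PLVAP and ENG, which mark endothelium in general, lay at 0.17, -0.02 and -0.23. Of 19 measured genes 2 were at least 2-fold lower and none higher. The list leaned low, with 13 below the median and a list median of -0.21. Within bins of span 16 were below it, at a list median of -0.23.

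Cytokines, chemokines and the genes they induce were mostly below the median. PTX3, a soluble pattern recognition protein released in inflammation, had 7.67 FPKM in brown, 4.72 in white and 41.9 in black, at -2.64, from a locus that spans 260451 bases and so may take in other genes. The chemokine CCL19, which draws dendritic cells and T cells, had 9.91 in brown, 3.66 in white and 25.4 in black, and CXCL8, which draws neutrophils, had 4.34 in brown, 2.18 in white and 8.98 in black. Of 18 measured cytokines and acute mediators 4 were at least 2-fold lower, 1 higher, and 12 were below the subtracted median, with a list median of -0.28. TNF and IL11, at 1.85 and 0.921 FPKM in brown and 3.67 and 2.01 in black, were among the 4, and for both the white value (4.01 and 1.86) was closer to black than to brown. Within bins of span TNF was at -0.99. Of 16 chemokines 2 were lower, none higher and 13 below the median. The most abundant chemokine, CXCL14, had 541 in brown, 457 in white and 559.6 in black, at -0.24. Feedback genes of NF-kB and cytokine signalling had a list median of -0.56, with 14 of 17 below the median: ZC3H12A, an RNase that degrades cytokine mRNAs, had 8.63 in brown, 9.76 in white and 17.1 in black, and SOCS3, an inhibitor of JAK-STAT signalling, had 10.8 in brown, 8.75 in white and 19.9 in black (-1.07, and -0.89 within bins of span). NFKBIA, at 45.7 in brown and 51.7 in black, did not pass 2-fold. Among 18 interferon-stimulated genes only ISG15, with 13.7 in brown, 6.26 in white and 26.2 in black, was past 2-fold (-1.13, and -0.98 within bins of span).

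Markers of resident and infiltrating leukocytes leaned below the median without reaching 2-fold. Of 16 macrophage and dendritic cell genes 15 were below the median, none past 2-fold, with a list median of -0.50. TYROBP, an adaptor of myeloid receptors, had 72.2 FPKM in brown, 113 in white and 102 in black. Of 13 T and NK cell genes 11 were below the median, none past 2-fold, with a list median of -0.48, and the T cell receptor chain CD3E had 6.70 in brown, 11.3 in white and 8.13 in black. For TYROBP and CD3E brown was the lowest colour and white, not black, the highest. GNLY, the granule protein granulysin of cytotoxic lymphocytes, was far lower, with 4.03 in brown, 8.25 in white and 26.5 in black (-2.91), and was named after its value was seen. Mast cell genes lay on the other side, with 8 of 8 above the median at a list median of 0.24. CPA3, a mast cell protease, had 15.4 in brown, 25.9 in white and 11.8 in black. KIT, which is in this list too, was the member past 2-fold, which it was not within bins of span.

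Some antigen receptor segments and plasma cell genes were higher in brown. The table holds 74 loci that the later annotation classes as antigen receptor segments, and 15 of them were above 0 in both colours among the loci described here. The class does not separate antibody segments from T cell receptor segments. Of these 15, 6 were at least 2-fold higher in brown and 3 at least 2-fold lower, against 2.00% and 1.77% of the 13832 loci. Most of the segments past 2-fold reached the minimum only in the colour where they were high, so the counts depend on the minimum. LOC102186478, LOC102176684, LOC102171594 and LOC102168416, all higher in brown, had 0.737, 0.661, 0.518 and 0.624 in black. LOC102179160 and LOC102170970, both lower, had 0.536 and 0.157 in brown. The variable segment LOC102176353 had 85.9 FPKM in brown, 6.92 in white and 10.3 in black, and the constant region LOC102168903 had 39.5 in brown, 3.53 in white and 3.83 in black. Summed over all 74 loci the segments had 219 in brown, 97.0 in white and 85.1 in black. Most of the brown sum came from LOC102176353 and LOC102168903. Other abundant segments did not share this pattern. LOC102179835 had 23.7 in brown, 29.1 in white and 21.0 in black, and LOC102181959 had 16.2 in brown, 15.4 in white and 12.6 in black. JCHAIN, which joins IgA and IgM chains in plasma cells, had 4.96 in brown, 0.987 in white and 1.20 in black. MZB1 and POU2AF1, plasma cell and B cell genes under the minimum, had 0.919 and 0.222 in brown, 0.0640 and 0.0205 in white, and 0.133 and 0.00922 in black. The B cell marker CD79A, with 0.677 in brown, 1.01 in white and 1.05 in black, did not show this. The segments and the genes under the minimum were named after their values were seen. Segments are near copies of each other, and reads that map to several places were all reported by the authors, so the split between segments is uncertain.

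**Figure D4:**
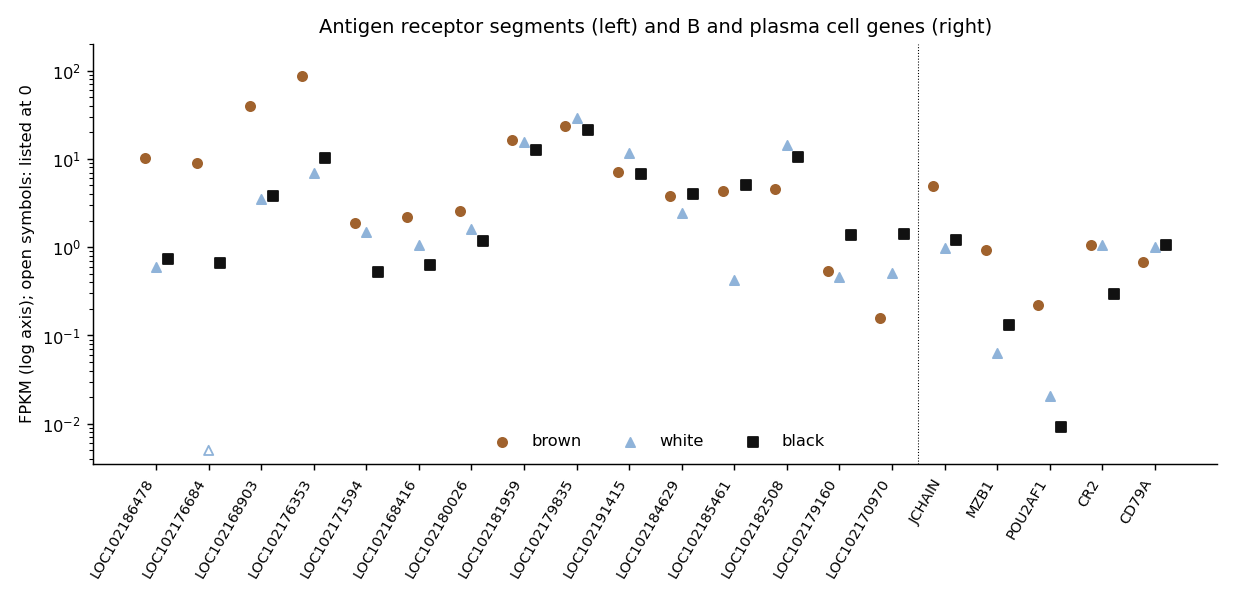
FPKM on a log axis in brown (circles), white (triangles) and black skin (squares) of the 15 antigen receptor segments above 0 in brown and black, and of 5 B and plasma cell genes; an open symbol at the foot is a value listed at 0. The 4 segments on the left are between 8.89 and 85.9 FPKM in brown and at most 10.3 in black.

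Epidermal genes of the basal and differentiating layers leaned to opposite sides without reaching 2-fold. In the basal layer 11 of 13 measured genes were above the subtracted median, with a list median of 0.45 and none past 2-fold. KRT5, the partner of KRT14, had 9336 FPKM in brown, 8042 in white and 5986 in black. COL17A1, a hemidesmosome collagen that anchors basal cells, had 175 in brown, 242 in white and 96.3 in black. In the differentiating layers 22 of 30 genes were below the median, with a list median of -0.32 and none past 2-fold, although KRT1 (0.23) and KRT10 (0.22) were above it. KRTDAP, a protein of differentiating keratinocytes, had 2211 in brown, 2922 in white and 2939 in black. Within bins of span the list medians were 0.35 and -0.22.

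Kallikreins, the serine proteases that cut corneodesmosomes so that surface cells are shed, were all on the lower side: 10 of 10 were below the median, 3 past 2-fold, with a list median of -0.88. KLK6 had 174 FPKM in brown, 87.0 in white and 352 in black, and KLK9 and KLK14 had 3.48 and 4.13 in brown, 5.48 and 3.12 in white, and 7.19 and 7.69 in black. KLK7, the most abundant, had 446 in brown, 493 in white and 604 in black, at -0.63. KLK10 was highest in white, with 163 in brown, 402 in white and 242 in black. Within bins of span KLK14 was at -0.90, and 2 kallikreins stayed past 2-fold.

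Genes of stressed and mucosal-type epithelium had the lowest median of all lists, -1.61, with 6 of 10 at least 2-fold lower in brown and 1 higher. Among the 6 are the S100 genes S100A7, S100A8, S100A9 and S100A12, which were already counted in the S100 list. The list median rests largely on these genes, and no median without them was taken. TGM2 and LCN2 lay at -0.32 and 0.02. KRT4, a keratin of moist epithelia, had 9.28 FPKM in brown, 3.14 in white and 38.2 in black, and PI3, the elastase inhibitor elafin, had 1.18 in brown, 1.05 in white and 3.90 in black. KRT6A, a keratin that wounded epidermis and the follicle express, lay at the median, with 1719 in brown, 1023 in white and 1479 in black (0.02). IL36B went the other way: this epithelial cytokine had 4.61 in brown, 0.0854 in white and 0.219 in black, at 4.20. Brown alone was above 1 FPKM for IL36B.

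Hair follicle genes were near the median as a group. Of 8 hair shaft keratins 1 was past 2-fold, with a list median of 0.05. KRT38 had 21.3 FPKM in brown, 23.0 in white and 6.52 in black, whereas KRT35, the most abundant, had 270.03 in brown, 475 in white and 241 in black. Of 12 inner root sheath genes TCHHL1, a trichohyalin-like protein, was at least 2-fold lower, with 21.5 in brown, 90.5 in white and 38.3 in black, and within bins of span it was at -0.85. TCHH, trichohyalin itself, had 1022 in brown, 1597 in white and 605 in black, at 0.56. Of 19 hair matrix and growth phase regulators none was past 2-fold and the list median was 0.08, with FOXN1, a regulator of hair shaft differentiation, at 21.7 in brown, 47.9 in white and 14.7 in black. In the dermal papilla list CRABP1, which binds retinoic acid, was the member past 2-fold, with 33.2 in brown, 25.3 in white and 68.2 in black (-1.24), and the list median was -0.17. The keratin-associated proteins KRTAP3-1 and KRTAP11-1 had 2989 and 1262 in brown, 7196 and 3248 in white, and 3098 and 1230 in black, so that for both brown lay close to black and white was apart.

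Gland genes had single members at both ends. In the list of sweat and mucous gland genes AQP5, the water channel of secretory cells, had 1.90 FPKM in brown, 4.59 in white and 5.31 in black (-1.68). FCGBP, a mucus-associated protein, had 34.4 in brown, 249 in white and 14.3 in black (1.07, and 0.93 within bins of span). MUCL1, a small secreted mucin, lay just under 2-fold (1.18 within bins of span), with 78.8 in brown, 2.26 in white and 34.5 in black. The list median was -0.02 over 14 genes. Of 23 sebaceous gland genes none was past 2-fold, with a list median of -0.05, and the lipid droplet protein PLIN2 had 255 in brown, 269 in white and 277 in black.

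Dermal matrix genes were mostly above the median in brown. Of 30 fibroblast and dermal matrix genes 27 were above the median, none past 2-fold, with a list median of 0.17. Within bins of span 22 were above it, at a list median of 0.11. POSTN, a matrix protein of growing dermis, had 649 FPKM in brown, 1147 in white and 396 in black, and DCN, decorin, had 1038 in brown, 869 in white and 806 in black. Of 26 collagens 22 were above the median and COL6A5 was past 2-fold, with 7.17 in brown, 107 in white and 2.51 in black. The list median was 0.24, and within bins of span it was 0.08, with 17 above the median and 9 below. COL6A5 differed far more between white and the other colours than between brown and black. Among matrix remodelling genes the direction was mixed, with 3 higher, 1 lower and a list median of -0.08 over 22 that was 0.06 within bins of span. MMP1, interstitial collagenase, had 30.3 in brown, 1.30 in white and 11.0 in black. MMP3, stromelysin, had 2.07 in brown, was listed at 0 in white and had 0.589 in black, and SERPINE2, a protease inhibitor, had 26.1 in brown, 7.27 in white and 10.4 in black. ADAMTS4, which cuts aggrecan and versican, was the lower one, with 5.21 in brown, 3.84 in white and 12.3 in black. TIMP1, an inhibitor of metalloproteinases, had 286 in brown, 148 in white and 413 in black, at -0.73.

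Muscle, fat and nerve lists held few differences. Of 18 smooth muscle genes none was past 2-fold, with a list median of -0.12 (-0.35 within bins of span), and the smooth muscle actin ACTA2 had 149 FPKM in brown, 228 in white and 184 in black. Skeletal muscle was close to absent: 7 of the 28 genes of the list in the table reached the minimum, the contractile genes MYL1, MYL2 and MYLPF were listed at 0 in brown, white and black, and the list sum was 34.1 in brown, 32.4 in white and 43.7 in black. In the fat cell list ADIPOQ, the hormone adiponectin, was past 2-fold at 0.440 in brown, 0.733 in white and 1.14 in black. It reached the minimum only in black, so its place in the list depends on the colour where it was high. The lipid droplet protein PLIN1 had 0.279 in brown, 0.350 in white and 0.360 in black, and the hormone LEP was listed at 0 in all 3 colours. The skeletal muscle and fat genes under the minimum were named after their values were seen. Of 16 Schwann cell genes none was past 2-fold, with a list median of 0.14.

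Lists of general cell functions had few members past 2-fold, and some leaned to one side. Of 30 proliferation genes 25 were above the median, none past 2-fold, with a list median of 0.17. Within bins of span 27 were above it, at a list median of 0.26. The replication clamp PCNA had 89.0 FPKM in brown, 49.0 in white and 63.2 in black. Of 77 cytosolic ribosomal protein genes 74 were below the subtracted median, at a list median of -0.17 that was 0.01 within bins of span. Circadian clock genes, with a list median of -0.01 over 18 genes, and heat shock genes and chaperones, with 0.02 over 17, had no member past 2-fold. The 13 reference genes had a list median of -0.06. GAPDH had 1131 in brown, 888 in white and 1114 in black. Of 224 solute carriers 3 were at least 2-fold higher and 1 lower, and of 212 ZNF zinc finger genes 2 were higher and none lower, which is at or under the share of all loci. The lists of follicle stem cell genes (11 measured), respiratory chain genes (66), HOX genes (22) and lymphatic genes (4) had no member past 2-fold.

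**Figure D5:**
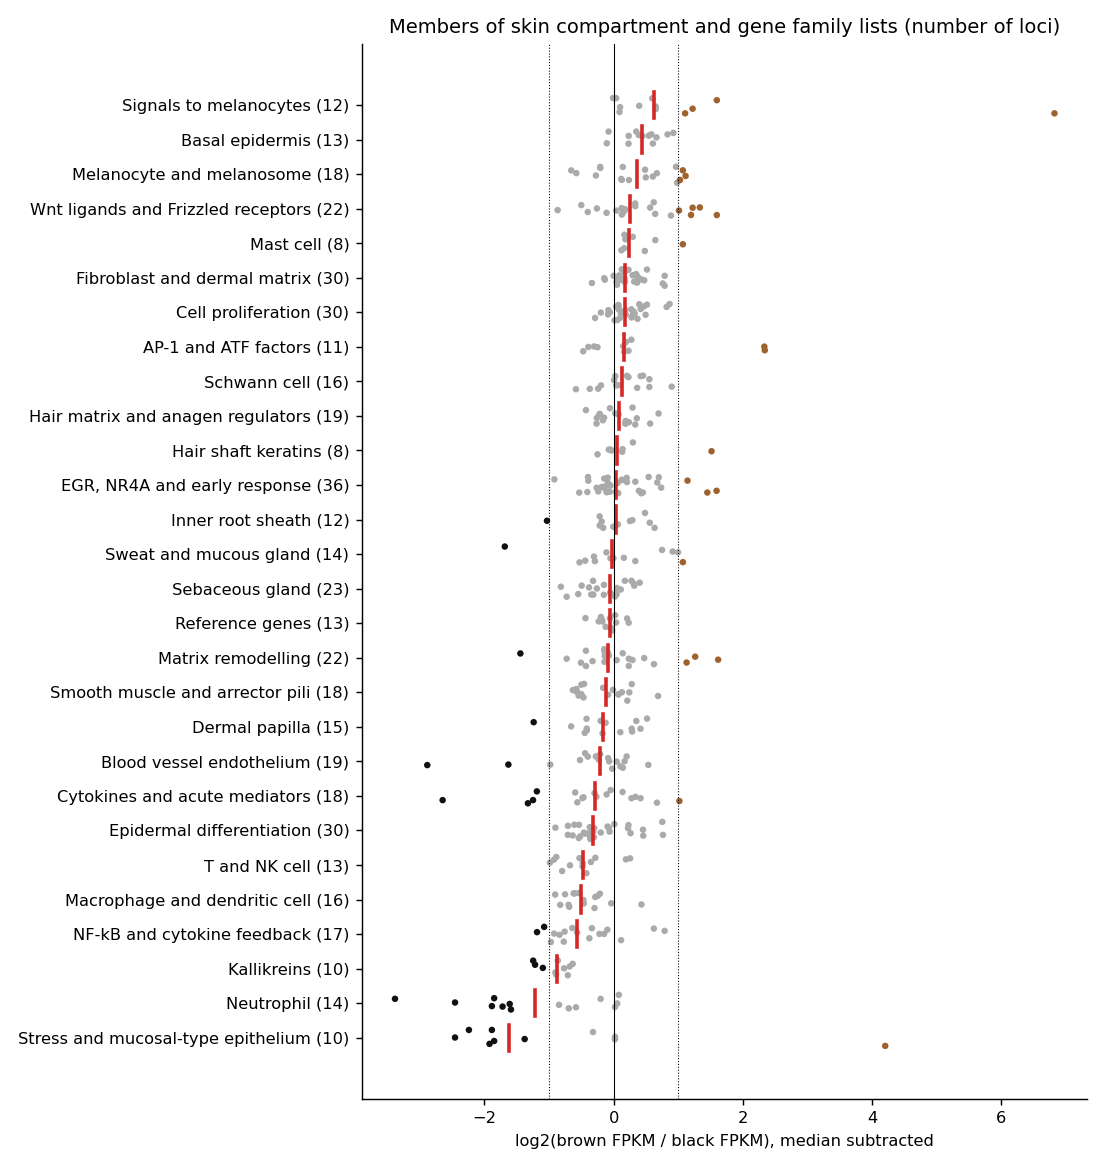
Relative log2 ratio of brown over black (horizontal axis) for the members of 28 compartment and family lists, 1 point per gene, with the list median as a red bar and the number of measured genes in brackets; brown points are at least 2-fold higher and black points at least 2-fold lower in brown. Of the lists drawn, signals to melanocytes have the highest median, 0.63, and stressed and mucosal-type epithelium the lowest, -1.61.

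Some of the largest differences fell on genes in none of these lists. SAPCD2, which acts in the orientation of the mitotic spindle, had 21.1 FPKM in brown, 8.13 in white and 3.46 in black, from a locus of only 117 bases. FAM111B, a replication-linked protease, had 5.08 in brown, 1.09 in white and 1.44 in black. AURKC, a kinase best known from germ cells, had 7.38 in brown, 2.50 in white and 2.49 in black. MAN1A1, a mannosidase of the Golgi, had 6.97 in brown, 5.57 in white and 2.34 in black (1.37, and 0.96 within bins of span). Lower in brown were C28H10orf99, with 0.785 in brown, 0.618 in white and 6.34 in black, SDS, the enzyme serine dehydratase, with 4.24 in brown, 2.13 in white and 19.0 in black, and C21H14orf142, with 5.19 in brown, 7.45 in white and 25 in black. TM4SF5, a membrane protein of the tetraspanin type, had 3.06 in brown, 25.7 in white and 7.45 in black. TMEM115, a protein of the Golgi membrane, had 26.6 in brown, 35.7 in white and 67.8 in black.

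Loci deposited under a LOC number were a larger share of each tail than of all loci, with 6.22% of them higher in brown and 6.04% lower. They accounted for 139 of the 276 higher loci (50.4%) and 135 of the 245 lower ones (55.1%), against 2235 of all 13832. These counts follow the deposited names. They include loci that received a symbol by gene ID and are named by it above, such as NR4A1, MMP3 and S100A9. The pseudogene LOC102172227 had the highest ratio of all, with 55.7 FPKM in brown, 81.1 in white and 0.0659 in black, a relative log2 ratio of 9.53 (chromosome 24, 50073557 to 50074339). Its order of colours was that of ASIP, with black apart and white highest. LOC102171783, which the later annotation does not list, had 50.5 in brown, 2.43 in white and 1.71 in black. At the other end the protein-coding LOC102190429 had 7.47 in brown, 5.45 in white and 81.5 in black, and LOC102180194 had 11.1 in brown, was listed at 0 in white and had 67.4 in black. LOC106502015, also not in the later annotation, had 10.6 in brown, 349 in white and 202 in black. These 5 loci were named after their values were seen, and no function is given to them here.

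A total of 79 loci were listed at 0 in one colour, 33 in brown and 46 in black, and were kept out of the counts above. Of these, 37 were tRNA loci, 16 of them at 0 in brown and 21 at 0 in black, with 36.8 to 60.1 FPKM in the other colour, and 12 were miRNA loci, 3 at 0 in brown and 9 in black. MIR27A, for example, had 53.4 in brown, 18.5 in white and was listed at 0 in black, and MIR221 was listed at 0 in brown and had 12.4 in white and 37.0 in black. The values of MIR320, with 61.7 in brown, 52.5 in white and 18.5 in black, and MIR27B, with 12.5 in brown, 23.4 in white and 47.9 in black, come from miRNA loci too, the second inside a locus of 420769 bases. The libraries were made from poly-A RNA, which is no measure of mature miRNAs or tRNAs, and no fold is given for a locus listed at 0.

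Some loci past 2-fold were neighbours. With a gap of at most 250 kb between them, 20 of the 209 lower loci placed on a chromosome fell into 6 runs of 3 or more, and 3 of the 240 higher ones into 1 run. On chromosome 3, from 15942674 to 16054238, S100A7, S100A8, S100A12 and S100A9 formed a run that took in 4 of the 5 loci measured there. On chromosome 6, from 86039988 to 86139748, CXCL8, LOC102181582 and the platelet chemokine gene PPBP made up 3 of 3 measured loci, with PPBP, named with LOC102181582 after its value was seen, low at 0.943 FPKM in brown, 0 in white and 1.91 in black. The kallikreins KLK6, KLK9 and KLK14 were 3 of 10 loci between 55397149 and 55492130 on chromosome 18. Paralogues that stand next to each other can share reads, and the part of shared reads in these runs was not tested.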

How the data were processed

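RNA of flank skin of 6 goats, 2 of each coat colour, was sequenced as paired reads. Libraries were made from poly-A RNA. After removal of adapters and of short or low-quality reads, the authors mapped the rest to the goat genome in TopHat, with every position of a multiply mapping read reported, and measured transcripts in Cufflinks. The submitters' processing notes name Bowtie2 2. The deposited FPKM values, made by the authors, are 1 per colour over 2 goats. The table holds neither counts nor values per goat, so the depth behind a value is unknown from it, and no interval, SD or test is given. The columns of the authors' own comparison (fold changes, test statistics, p-values, q-values, significance) were not used. FPKM of a colour was the same in each comparison.

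Log2(brown FPKM / black FPKM) was computed without a pseudocount, and the median over loci at 1 FPKM or more in brown and black was subtracted (Python 3.11.15, pandas 2.3.3, numpy 2.4.6). A difference was counted at 2-fold or more relative to that median. The step was tested on simulated data. These held black values at 1 FPKM or more and had a smaller spread over loci than the real data, so the scatter of low loci is not covered. The genome build of the coordinates is not given in the sources used here. Chromosome numbers were assigned to 30 sequences by the majority of their gene names in the later annotation ARS1.2 (lowest share 68.1%). LOC numbers were matched to it by gene ID: 1693 of 2262 were found and 322 received a symbol. Spans are those of the table's loci, which can hold a gene inside a longer one.

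The loci and the 53 gene lists were chosen with earlier results of these data known. Genes were named by rule: the 15 highest and 15 lowest ratios among named loci with at least 5 FPKM in the higher colour; per list up to 4 genes past 2-fold and up to 3 others of highest FPKM; pigment genes of the study; and loci at 0 in one colour with at least 5 FPKM in the other. Others are marked where they appear. Alternatives were no centring, centring on reference genes or within 20 bins of span, a pseudocount of 1, other FPKM minimums, any status, named loci only, a larger fold, and, chosen after seeing the data, leaving out loci under 300 bp, tRNA and miRNA, and the neutrophil list without its S100 genes. Some genes of the lists are not reported here.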

Additional observations from a re-analysis of the deposited data

How the results depend on the processing

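At least 2-fold higher in brown were 276 loci and lower 245. Without centring, 486 were higher and 163 lower, so that the share of higher loci among those past 2-fold moved by more than 10 percentage points. Centred on the 13 reference genes, 312 were higher and 219 lower. A minimum of 1 FPKM in brown and black alike left 127 and 158, at least 5 in either colour 90 and 108, named loci only 127 and 110, a pseudocount of 1 gave 121 and 149, and a relative log2 ratio of at least 2 in size 42 and 48. Without loci under 300 bp, tRNA and miRNA, an alternative chosen after seeing the data, 265 and 231 remained past the line. Loci of any status (278 and 258) and no FPKM minimum (299 and 253) moved the counts by less than 1.5 times. Under these settings no named gene or list median past 2-fold changed its sign. A value that far from the median has little room to change sign, so this is a weak check. Nearer the median signs did change: TYR moved from 0.13 to -0.14 within bins of span. The median of the neutrophil list was -0.69 with that minimum of 1, -0.86 with named loci only and -0.78 with a pseudocount of 1. Low genes depend on the pseudocount: with 1 added, MMP3 was at 0.78, TNF at -0.89 and ADIPOQ at -0.75. The median shift of 0.20 ranged from 0.17 to 0.21. No paired analysis was possible because the table gives 1 value per colour, and leaving out a goat was not possible for the same reason.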
